A study of Mus musculus with 12 samples.

Results

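The genes described here are 40 non-collagen genes of the extracellular matrix, measured in hippocampal RNA of *Fmr1* knockout (KO) and wild-type (WT) mice 4 months after a short course of Nutlin-3 or vehicle. They were taken by name and sorted into 6 groups by role. These are 9 laminin chains, 4 basement membrane linkers and proteoglycans, 11 elastic fibre and microfibril proteins, 5 collagen processing and crosslinking proteins, 4 small leucine-rich proteoglycans and 7 other matrix glycoproteins. Each of the 40 exceeded a summed count of 20 across the libraries, the limit that 22592 of the 55421 listed genes passed. Between 17150820 and 20040482 reads fell on genes in each library. The mice were injected intraperitoneally at 2 months of age and the hippocampus was taken at 6 months. WT-Veh mice are wild type and received vehicle, WT-Nut3 mice are wild type and received Nutlin-3, KO-Veh mice are *Fmr1* knockouts and received vehicle, and KO-Nut3 mice are *Fmr1* knockouts and received Nutlin-3, with 3 mice in each group. Nutlin-3 is a small molecule that blocks the binding of MDM2 to p53. The knockout is constitutive and present in every cell, all mice share the C57B/L6 background, and the study also used a *Nestin-GFP* reporter cross whose presence in these 12 mice is not given in the labels.

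Basement membranes are thin sheets of matrix under epithelium and endothelium and around smooth muscle. Laminins, each a trimer of an alpha, a beta and a gamma chain, form a network that nidogens and the heparan sulfate proteoglycans perlecan and agrin join to the collagen network. Outside these sheets, fibrillins, fibulins and elastin form elastic fibres, lysyl oxidases crosslink collagen and elastin, and small leucine-rich proteoglycans such as decorin and lumican bind collagen fibrils. In brain this kind of matrix lies mainly in vessel walls, the meninges and the stroma of the choroid plexus, while astrocytes and neurons also make some of these proteins.

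*Fmr1* was measured first to check the labels. Its level, in CPM (the count as a share of the TMM-scaled library total), was 79.5, 75.3 and 77.7 CPM in WT-Veh and 75.2, 74.0 and 78.3 CPM in WT-Nut3. In the KO mice it was 32.7, 32.5 and 37.3 CPM with vehicle and 30.6, 28.5 and 35.7 CPM with Nutlin-3. All 6 KO libraries lay below all 6 WT libraries, with a log2 fold change of -1.18 ± 0.07 for KO-Veh against WT-Veh (edgeR adjusted *P* = 1.52e-06) and of -1.27 ± 0.09 for KO-Nut3 against WT-Nut3 (adjusted *P* = 0.00405). Reads on the gene remained in every KO library, with 497 to 655 counts.

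Several libraries stood apart in markers of tissue around the hippocampus, and those values are given before the matrix genes. The 12 markers of choroid plexus epithelium summed to 39.95, 41.6 and 31.5 CPM in WT-Veh (RH2, RH5 and RH15, by animal number) and to 33.2, 44.8 and 53.4 CPM in KO-Veh (RH7, RH10 and RH16). They summed to 44.8, 4794 and 55.9 CPM in WT-Nut3 (RH1, RH9 and RH14) and to 3576, 384 and 5117 CPM in KO-Nut3 (RH6, RH8 and RH13). *Ttr*, which encodes the carrier protein transthyretin, was the most abundant of them by the mean over the 12 libraries. It was at 4215 CPM in WT-Nut3 RH9 and at 3091, 314 and 4520 CPM in KO-Nut3, against 3.15 to 18.2 CPM in the other 8 libraries. In each of those 8 libraries another marker, *Kl*, was higher than *Ttr*, at 17.6 to 26.9 CPM. The defining marker *Kcnj13* had no read in WT-Veh RH2 and in KO-Veh RH10, and the other markers of this list had reads in every library.

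The 12 markers of fibroblasts of the meninges and stroma followed another order. With vehicle they summed to 37.0, 162 and 61.6 CPM in WT mice and to 57.3, 45.0 and 50.9 CPM in KO mice. With Nutlin-3 the sums were 54.6, 81.8 and 31.9 CPM in WT mice, while the KO mice had 140, 229 and 86.6 CPM. KO-Nut3 RH8 and WT-Veh RH5 were the highest. The most abundant marker by the mean over the 12 libraries was the transporter gene *Slc13a4*. It was high in WT-Veh RH5 (25.1 CPM), in WT-Nut3 RH9 (26.1 CPM) and in KO-Nut3 (36.7, 37.3 and 29.4 CPM), and lay between 2.41 and 7.28 CPM elsewhere. The collagen gene *Col1a2* was above *Slc13a4* in WT-Veh RH5 (27.5 CPM), in KO-Nut3 RH8 (39.2 CPM) and in every library where *Slc13a4* was low (5.38 to 10.5 CPM). All 12 markers had reads in every library. Between KO-Nut3 and KO-Veh all 12 choroid plexus markers and all 12 fibroblast markers had positive differences, with median log2 fold changes of 4.91 and 1.38. Of these, 5 and 1 were called, beside 0.199% of all genes. With all 12 libraries in one fit no gene was called in this comparison. Leaving out KO-Veh RH7, RH10 or RH16 left 6, 6 and 7 calls over all genes, against 45 with none left out.

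Markers of vessels and ependyma spanned a smaller range, with larger mean sums in the KO-Nut3 libraries than in those of KO-Veh. The 8 endothelial markers, with *Flt1* the most abundant, summed to 254, 274 and 266 CPM in KO-Nut3 against 235, 213 and 241 CPM in KO-Veh, and lay between 235 and 263 CPM in WT. The 8 mural cell markers, with *Rgs5* the most abundant, summed to 183, 219 and 177 CPM against 176, 153 and 135 CPM, and lay between 162 and 214 CPM in WT. Neither sum overlapped between KO-Nut3 and KO-Veh. The 6 ependymal markers, with *Foxj1* the most abundant, summed to 45.8, 37.4 and 48.4 CPM against 23.8, 21.5 and 41.5 CPM, which overlapped. The difference was positive for 6 of 8 endothelial markers (median log2 fold change 0.24, 5 without overlap beside 7.85% of all genes), 8 of 8 mural cell markers (0.38) and 6 of 6 ependymal markers (0.72), and edgeR called none of these. The 6 thalamus markers summed to 208 CPM in KO-Nut3 RH6 and to between 45.1 and 66.2 CPM in the other 11 libraries, and the 6 markers of CA pyramidal neurons were lowest in the same library at 509 CPM, against 708 to 836 CPM elsewhere. No marker of CA pyramidal or dentate granule neurons was at 0 in any library, and the 6 dentate granule markers summed to between 352 and 544 CPM. The markers of astrocytes, microglia, oligodendrocytes and blood ran from 3996 to 4990, 235 to 298, 3577 to 6106 and 42.2 to 84.7 CPM. In KO-Nut3 against KO-Veh 6 of 6 thalamus (median 0.93), 5 of 5 blood (0.42) and 6 of 6 oligodendrocyte markers (0.21) had positive differences. All 6 CA pyramidal (-0.26), all 6 dentate granule (-0.13) and all 6 microglia markers (-0.063) had negative ones. Astrocyte markers were divided, with 4 of 6 positive (0.045), and none of these was called. The part of the choroid plexus, fibroblast, ependyma, endothelium, mural cell and thalamus markers in the matrix gene differences below was not tested. In whole tissue, more cells of a type and more RNA per cell cannot be told apart.

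**Figure D1:**
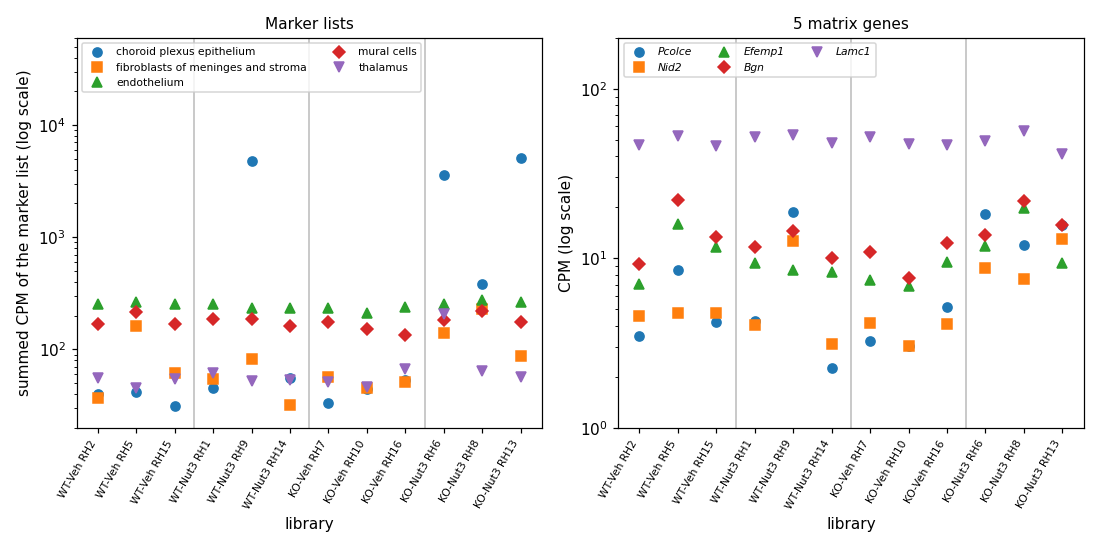
Summed CPM of 5 marker lists (left) and CPM of 5 matrix genes (right) in each library, both on log axes, with the 4 groups divided by vertical lines. *Pcolce* and *Nid2* peak in WT-Nut3 RH9 and KO-Nut3, *Bgn* and *Efemp1* peak in WT-Veh RH5 and KO-Nut3 RH8, and *Lamc1* stays between 41.4 and 56.4 CPM.

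The 40 genes differed widely in abundance. Compared per length, as mean CPM over the 12 libraries per kilobase of exon, *Sparcl1*, an astrocyte-secreted glycoprotein of the SPARC family, stood first at 495. *Sparc* followed at 65.6 and *Agrn*, which encodes agrin, at 31.5. The other 37 genes lay between 9.44 (*Matn2*, matrilin-2) and 0.0374 (*Mfap5*, a microfibril protein). *Sparcl1*, *Sparc* and *Agrn* together supplied between 72.4% and 80.0% of the summed CPM of the 40 genes in each library. Per length, the highest laminin chain was *Lamb2* at 6.06, the highest elastic fibre gene *Efemp1* at 5.13, the highest collagen processing gene *Pcolce* at 2.16 and the highest small leucine-rich proteoglycan *Dcn* at 7.71.

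The first question was whether the matrix genes differed between KO-Nut3 and KO-Veh, the comparison of Nutlin-3 with vehicle in *Fmr1* knockout mice. *Pcolce* and *Hspg2* rose and no member fell, in the quasi-likelihood test of edgeR with Benjamini-Hochberg adjusted *P*-values under 0.05, in which 0.199% of all 22592 genes tested were called. At an unadjusted *P* under 0.05 there were 23 members, all higher in KO-Nut3, beside 7.60% of all genes. For 21 members all 3 KO-Nut3 libraries lay above all 3 KO-Veh libraries, beside 7.85% of all genes. For none did they all lie below, beside 5.44% of all genes. The difference was positive for 35 of 40 members with a median log2 fold change of 0.63, against 50.8% of all genes and a median of 0.003. By DESeq2, the tool of the study, 14 members were called, all higher, beside 1.35% of the 18187 genes with an adjusted *P*. They were *Pcolce*, *Hspg2*, *Lama5*, *Nid2*, *Thbs2*, *Thbs1*, *Pcolce2*, *Efemp2*, *Fbln1*, *Lamb2*, *Fbln5*, *Emilin1*, *Lum* and *Bgn*.

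**Figure D2:**
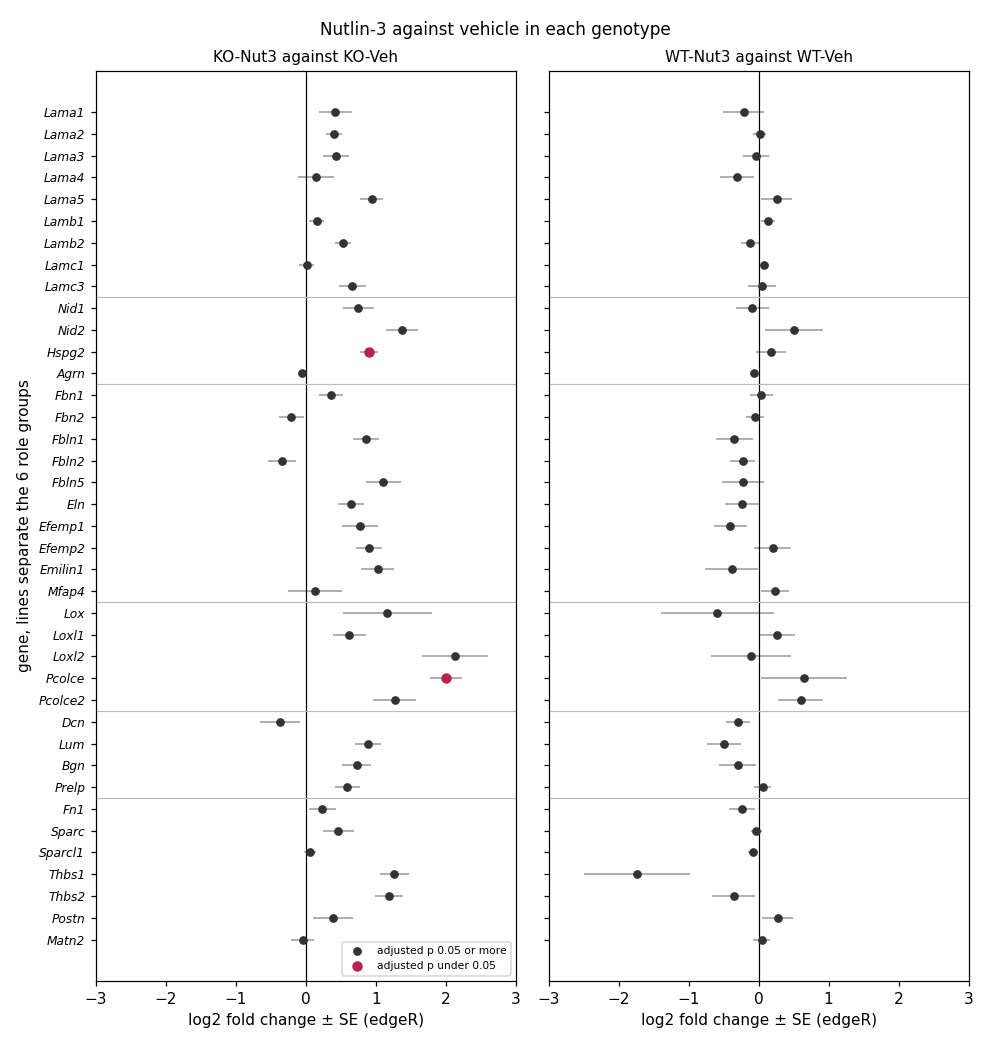
Log2 fold change ± SE from edgeR for 39 matrix genes, Nutlin-3 against vehicle in KO (left) and in WT (right), 3 libraries per group. *Mfap5* is left out because KO-Veh had at most 3 counts per library, red points passed the adjusted threshold, and only *Hspg2* and *Pcolce* in KO did so.

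*Pcolce* (ENSMUSG00000029718, chromosome 5, 137605103 to 137613784, minus strand of GRCm38) encodes procollagen C-endopeptidase enhancer, which speeds the removal of the C-terminal propeptide from fibrillar procollagens. Its level was 18.2, 11.9 and 15.7 CPM in KO-Nut3 against 3.25, 3.04 and 5.18 CPM in KO-Veh. These groups did not overlap, and the log2 fold change was 1.99 ± 0.23 (SE, n = 3 per group, edgeR adjusted *P* = 0.0122). The gene shares 5.86% of its exon bases with other genes. In WT mice it was 3.46, 8.51 and 4.22 CPM with vehicle and 4.26, 18.9 and 2.24 CPM with Nutlin-3, so that WT-Nut3 RH9, the WT library with high *Ttr*, held the highest value of all 12. The *Pcolce* mean was 15.3 ± 3.18 CPM (SD, n = 3) in KO-Nut3, 3.83 ± 1.18 in KO-Veh, 8.46 ± 9.08 in WT-Nut3 and 5.40 ± 2.72 in WT-Veh. The adjusted *P* was 0.112 without KO-Veh RH7 and 0.145 without KO-Veh RH10, and *Pcolce* remained under the threshold without any of the other 4 libraries. With all 12 libraries in one fit the adjusted *P* was 0.319.

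*Hspg2* (ENSMUSG00000028763, chromosome 4, 137468769 to 137570630, plus strand) encodes perlecan, the large heparan sulfate proteoglycan of basement membranes. It was at 24.6, 23.4 and 29.5 CPM in KO-Nut3 compared with 12.2, 13.4 and 16.01 CPM in KO-Veh. All KO-Nut3 libraries were higher than all KO-Veh libraries. The log2 fold change was 0.90 ± 0.13 (edgeR adjusted *P* = 0.0339). The WT libraries overlapped both KO groups, with 16.1, 25.3 and 15.8 CPM after vehicle and 20.7, 27.8 and 15.6 CPM after Nutlin-3. The *Hspg2* mean was 25.9 ± 3.24 CPM (SD, n = 3) in KO-Nut3, 13.9 ± 1.96 in KO-Veh, 21.4 ± 6.12 in WT-Nut3 and 19.03 ± 5.40 in WT-Veh. The adjusted *P* passed 0.05 when KO-Veh RH7, KO-Veh RH10, KO-Veh RH16 or KO-Nut3 RH13 was left out, and was 0.378 without RH10. It was 0.298 with all 12 libraries in one fit and 0.0565 by limma-voom.

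The other basement membrane linkers differed among themselves, and the median of all 4 was 0.82. *Nid2*, encoding nidogen-2, was at 8.82, 7.56 and 13.0 CPM in KO-Nut3 against 4.13, 3.04 and 4.10 CPM in KO-Veh, a log2 fold change of 1.38 ± 0.23 that missed the threshold (adjusted *P* = 0.0563). *Nid1*, its close relative, had a log2 fold change of 0.75 ± 0.22 (adjusted *P* = 0.350), with its highest value of 16.4 CPM in KO-Nut3 RH8, and of 0.47 without that library. *Agrn* encodes agrin, a proteoglycan of neuromuscular and vascular basement membranes that neurons also make, and its values lay close together. With Nutlin-3 it read 285, 285 and 271 CPM in KO and 293, 293 and 290.5 CPM in WT. With vehicle the KO libraries had 291, 283 and 296 CPM and the WT libraries 312, 316 and 290.3 CPM. The log2 fold change of *Agrn* between KO-Nut3 and KO-Veh was -0.05 ± 0.06. The *Agrn* mean was 280.4 ± 7.96 CPM (SD, n = 3) in KO-Nut3, 289.7 ± 6.53 in KO-Veh, 292 ± 1.69 in WT-Nut3 and 306 ± 13.7 in WT-Veh. Its depth, 64633 counts over the 12 libraries, exceeded that of *Hspg2* with 4448.

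Promoter sequences are shown for *Hspg2* and *Pcolce*, the called genes, for *Lama5* and *Thbs2*, which had the smallest *P* among the laminin chains and the other glycoproteins, and for *Agrn*, whose values lay close together. They come from RefSeq on GRCm38.p6, in which 21 of the 40 genes matched. Each line gives the 150 bases nearest to the RefSeq start on its upstream side that lie outside annotated exons, 5′ to 3′ in the direction of the gene. Capitals mark the GC box GGGCGG and the TATA box TATAAA read on either strand, so also as CCGCCC and TTTATA, and matches may overlap. The regions are chr4:137468619-137468768 (plus strand) for *Hspg2*, chr5:137611488-137611637 (minus) for *Pcolce*, chr2:180225860-180226009 (minus) for *Lama5*, chr17:14694263-14694412 (minus) for *Thbs2* and chr4:156197489-156197638 (minus) for *Agrn*.
Hspg2: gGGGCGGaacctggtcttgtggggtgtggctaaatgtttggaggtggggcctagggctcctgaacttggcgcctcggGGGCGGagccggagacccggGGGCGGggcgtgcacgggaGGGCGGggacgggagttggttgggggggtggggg
Pcolce: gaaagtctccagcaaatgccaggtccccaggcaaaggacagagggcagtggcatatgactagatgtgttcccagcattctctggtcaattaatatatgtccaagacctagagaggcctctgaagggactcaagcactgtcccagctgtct
Lama5: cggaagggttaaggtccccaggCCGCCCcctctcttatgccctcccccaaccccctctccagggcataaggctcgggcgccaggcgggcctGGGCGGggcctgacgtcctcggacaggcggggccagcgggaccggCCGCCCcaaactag
Thbs2: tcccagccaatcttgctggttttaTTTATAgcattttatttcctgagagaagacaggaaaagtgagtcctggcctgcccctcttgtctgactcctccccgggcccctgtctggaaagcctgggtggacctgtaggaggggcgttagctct
Agrn: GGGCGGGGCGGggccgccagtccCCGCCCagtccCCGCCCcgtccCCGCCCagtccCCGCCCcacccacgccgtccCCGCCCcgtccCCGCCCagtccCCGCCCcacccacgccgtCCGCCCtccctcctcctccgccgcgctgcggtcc

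Within these 150 bases *Agrn* held 10 GC boxes, *Hspg2* 4, *Lama5* 3 and the other 2 genes none, and *Thbs2* held the only match to the TATA box. That match read TTTATA and began 126 bases before the RefSeq start. The GC content was 85.3% for *Agrn*, 72.7% for *Hspg2*, 73.3% for *Lama5*, 53.3% for *Thbs2* and 50.7% for *Pcolce*. In the 250 bases before the start, 17 of the 27 windows of the 21 matrix genes held a GC box, beside 32.7% of all 32851 windows in the table, and 2 of the 27 held a TATA box, those of *Postn* and *Thbs2*, beside 12.4%. The RefSeq start of *Pcolce* lies 2380 bases inside the GENCODE gene, and another start was not examined. These matches describe the letters and were not tested against the expression values.

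Among the 9 laminin chains none passed the adjusted threshold in KO-Nut3 against KO-Veh, and all 9 had a positive difference with a median of 0.42. *Lama5*, the alpha 5 chain of mature vascular and epithelial basement membranes, was at 36.9, 23.8 and 39.2 CPM in KO-Nut3 compared with 16.8, 17.0 and 18.1 CPM in KO-Veh. The groups did not overlap and the log2 fold change was 0.94 ± 0.16 (adjusted *P* = 0.0663). In the WT groups *Lama5* was at 23.3, 26.2 and 18.7 CPM with vehicle, and 24.1, 38.5 and 18.6 CPM with Nutlin-3. The *Lama5* mean was 33.3 ± 8.29 CPM (SD, n = 3) in KO-Nut3 beside 17.3 ± 0.680 CPM in KO-Veh. *Lamb2*, the beta 2 chain of vessel walls, was at 46.8, 48.9 and 39.6 CPM against 35.6, 26.8 and 31.2 CPM, also without overlap (0.53 ± 0.12, adjusted *P* = 0.158). For *Lamb2* the WT values were 32.4, 44.8 and 34.1 CPM with vehicle, and 38.2, 34.2 and 29.8 CPM with Nutlin-3. The *Lamb2* mean was 45.1 ± 4.89 CPM (SD, n = 3) in KO-Nut3 beside 31.2 ± 4.39 CPM in KO-Veh. *Lama2*, the alpha 2 chain, was at 22.7, 23.1 and 22.7 CPM against 20.3, 15.1 and 16.4 CPM (0.40 ± 0.12, adjusted *P* = 0.352), and *Lamc3*, a gamma 3 chain, likewise did not overlap (0.66 ± 0.19, adjusted *P* = 0.350). *Lama3* (0.43 ± 0.19), *Lama1* (0.42 ± 0.23) and *Lamb1* (0.15 ± 0.11) overlapped between the groups. The value of *Lama1* was 0.22 without KO-Nut3 RH8 and that of *Lamb1* was 0.015 without KO-Nut3 RH13. *Lamc1*, the gamma 1 chain shared by most laminins, ranged only from 41.4 to 56.4 CPM over the 12 libraries and overlapped in all groups. *Lama4*, the alpha 4 chain of capillaries, ranged from 4.32 to 8.99 CPM and was highest in KO-Nut3 RH8 and WT-Veh RH5. Between KO-Nut3 and KO-Veh *Lamc1* differed by 0.012 ± 0.11 and *Lama4* by 0.14 ± 0.25. With a library left out *Lamc1* ran from -0.10 to 0.12 and *Lama4* from -0.15 to 0.37, so neither kept its sign. DESeq2 called *Lama5* and *Lamb2*.

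The 11 elastic fibre and microfibril genes had no member past the adjusted threshold of edgeR, while 6 had an unadjusted *P* under 0.05, all higher in KO-Nut3, beside 7.60% of all genes. *Efemp2*, encoding fibulin-4, which brings lysyl oxidase to elastin, had the smallest *P*. It was at 15.03, 10.1 and 13.5 CPM in KO-Nut3 against 6.09, 6.20 and 8.43 CPM in KO-Veh without overlap (0.90 ± 0.19, adjusted *P* = 0.128). The WT libraries of *Efemp2* held 7.52, 9.35 and 8.34 CPM with vehicle, and 6.54, 14.9 and 7.57 CPM with Nutlin-3. The *Efemp2* mean was 12.9 ± 2.503 CPM (SD, n = 3) in KO-Nut3 beside 6.91 ± 1.32 CPM in KO-Veh. *Fbln5*, encoding fibulin-5, a scaffold of elastic fibres, was at 5.77, 8.88 and 4.78 CPM against 3.05, 2.65 and 3.30 CPM (1.10 ± 0.25, adjusted *P* = 0.164). *Fbln1*, encoding fibulin-1, was at 14.97, 23.5 and 14.3 CPM against 10.1, 9.36 and 9.68 CPM (0.85 ± 0.19, adjusted *P* = 0.149). *Emilin1*, a microfibril interface glycoprotein, stood at 3.55, 5.27 and 5.49 CPM against 2.79, 2.03 and 2.16 CPM (1.03 ± 0.24, adjusted *P* = 0.180). These 4 genes and *Eln* (below) did not overlap between the groups, which makes 5 of the 11, beside 7.85% of all genes. Only the first 4 were called by DESeq2, beside 1.35% of the 18187 genes with an adjusted *P*.

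*Efemp1*, encoding fibulin-3, was at 11.8, 19.8 and 9.34 CPM in KO-Nut3 against 7.48, 6.82 and 9.57 CPM in KO-Veh. The groups overlapped, since KO-Nut3 RH13 lay below KO-Veh RH16 (0.77 ± 0.26, adjusted *P* = 0.455), and the log2 fold change was 0.40 without KO-Nut3 RH8. WT mice had *Efemp1* at 7.05, 15.9 and 11.6 CPM with vehicle, and 9.33, 8.49 and 8.30 CPM with Nutlin-3. The *Efemp1* mean was 13.6 ± 5.49 CPM (SD, n = 3) in KO-Nut3 beside 7.96 ± 1.43 CPM in KO-Veh. *Eln*, encoding elastin, had a log2 fold change of 0.64 ± 0.19 and *Fbn1*, encoding fibrillin-1, of 0.35 ± 0.17. *Fbn1* shares 20.1% of its exon bases with an antisense gene, and reads on both cannot be told apart without strand. *Fbn2*, encoding fibrillin-2, and *Fbln2*, encoding fibulin-2, had negative differences of -0.21 ± 0.17 and -0.35 ± 0.20, and both were lowest of all libraries in KO-Nut3 RH6, at 6.16 and 7.49 CPM. Without RH6 the values were -0.032 for *Fbn2*, -0.15 for *Fbln2* and 0.19 for *Fbn1*. *Mfap4* overlapped between all groups, from 1.82 to 5.05 CPM. *Mfap5* had 3, 0 and 1 counts in KO-Veh and 2, 10 and 1 in KO-Nut3 (1.66 ± 1.12, adjusted *P* = 0.767). At counts this low a missing call does not show equal levels.

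The collagen processing and crosslinking group had the highest median log2 fold change of the 6, at 1.27, and all 5 of its members had a positive difference. *Pcolce2*, a second enhancer of procollagen cleavage, was at 15.9, 6.87 and 17.4 CPM in KO-Nut3 against 5.78, 4.51 and 6.32 CPM in KO-Veh (1.27 ± 0.30, adjusted *P* = 0.200). KO-Nut3 RH8 lay close to the KO-Veh range. The lysyl oxidase relatives *Loxl1* and *Loxl2* crosslink elastin and collagen. *Loxl1* was at 5.05, 3.72 and 6.97 CPM against 3.36, 3.27 and 3.59 CPM (0.62 ± 0.24, adjusted *P* = 0.559), and differed by 0.37 without KO-Nut3 RH13. *Loxl2* was scarce, with 22, 11 and 29 counts in KO-Nut3 and 5, 5 and 4 in KO-Veh (2.13 ± 0.47, adjusted *P* = 0.149). *Lox* had 4, 15 and 19 counts against 5, 3 and 9, which overlap (1.16 ± 0.64, or 0.77 without KO-Nut3 RH13).

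The small leucine-rich proteoglycans were not alike, with 3 of 4 positive differences and a median of 0.66. *Lum*, encoding lumican, was at 5.05, 6.42 and 5.11 CPM in KO-Nut3 against 2.74, 3.10 and 3.13 CPM in KO-Veh (0.88 ± 0.19, adjusted *P* = 0.137). Every KO-Nut3 library of *Lum* also lay above every WT library, which were at 3.64, 4.47 and 3.35 CPM with vehicle and at 2.38, 3.63 and 2.07 CPM with Nutlin-3. The *Lum* mean was 5.52 ± 0.773 CPM (SD, n = 3) in KO-Nut3, 2.99 ± 0.221 in KO-Veh, 2.70 ± 0.821 in WT-Nut3 and 3.82 ± 0.579 in WT-Veh. *Bgn*, encoding biglycan, was at 13.8, 21.7 and 15.8 CPM against 10.8, 7.67 and 12.4 CPM (0.73 ± 0.21, adjusted *P* = 0.324). *Prelp*, a proteoglycan that anchors basement membranes to connective tissue, was at 31.6, 29.6 and 38.6 CPM against 19.8, 17.5 and 28.8 CPM (0.59 ± 0.17, adjusted *P* = 0.354). *Dcn*, encoding decorin, had 20.4, 56.5 and 44.4 CPM in KO-Nut3 against 43.1, 56.8 and 56.6 CPM in KO-Veh, with its lowest value of all libraries in KO-Nut3 RH6 (-0.37 ± 0.29, adjusted *P* = 0.792). Without that library the log2 fold change of *Dcn* was -0.047, and without KO-Nut3 RH8 it was -0.69. *Dcn* in WT was at 40.1, 58.3 and 46.1 CPM with vehicle, and 41.9, 47.4 and 28.4 CPM with Nutlin-3. The *Dcn* mean was 40.4 ± 18.4 CPM (SD, n = 3) in KO-Nut3 beside 52.2 ± 7.90 CPM in KO-Veh.

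Of the 7 other glycoproteins 6 had a positive difference, with a median of 0.39, and the thrombospondins had the smallest *P*. *Thbs2*, encoding thrombospondin-2, was at 9.37, 8.31 and 6.54 CPM in KO-Nut3 against 4.08, 3.50 and 3.02 CPM in KO-Veh without overlap (1.19 ± 0.19, adjusted *P* = 0.0559). *Thbs2* in WT stood at 3.76, 8.04 and 4.53 CPM with vehicle, and 3.04, 5.81 and 3.93 CPM with Nutlin-3. The *Thbs2* mean was 8.07 ± 1.43 CPM (SD, n = 3) in KO-Nut3 beside 3.53 ± 0.530 CPM in KO-Veh. *Thbs1*, encoding thrombospondin-1, was at 6.66, 6.13 and 6.15 CPM against 3.41, 2.20 and 2.22 CPM (1.26 ± 0.21, adjusted *P* = 0.0563). The single WT-Veh library RH15 had 24.7 CPM of *Thbs1*, 3.71 times the next highest of the 12 libraries. *Sparcl1* was at 1736, 1403 and 1408 CPM against 1429, 1411 and 1518 CPM (0.06 ± 0.09, adjusted *P* = 0.906). *Sparcl1* in WT read 1379.9, 1456 and 1557 CPM with vehicle, and 1508, 1284 and 1365 CPM with Nutlin-3. The *Sparcl1* mean was 1516 ± 191 CPM (SD, n = 3) in KO-Nut3 beside 1453 ± 57.03 CPM in KO-Veh.

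*Sparc*, a secreted glycoprotein that binds collagen, read 465, 243 and 233.5 CPM in KO-Nut3 and lay between 206 and 251 CPM in the other 9 libraries. Its high value was that of RH6 alone, the library with high thalamus markers. The log2 fold change of 0.46 ± 0.23 (adjusted *P* = 0.689) was 0.07 without that library. *Postn*, encoding periostin, was at 5.55, 3.72 and 3.29 CPM against 2.79, 2.37 and 4.44 CPM (0.39 ± 0.29, or 0.13 without KO-Nut3 RH6), and *Fn1*, encoding fibronectin, and *Matn2* overlapped between the groups, with ranges over all libraries of 57.9 to 109 and 42.9 to 72.1 CPM.

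**Figure D3:**
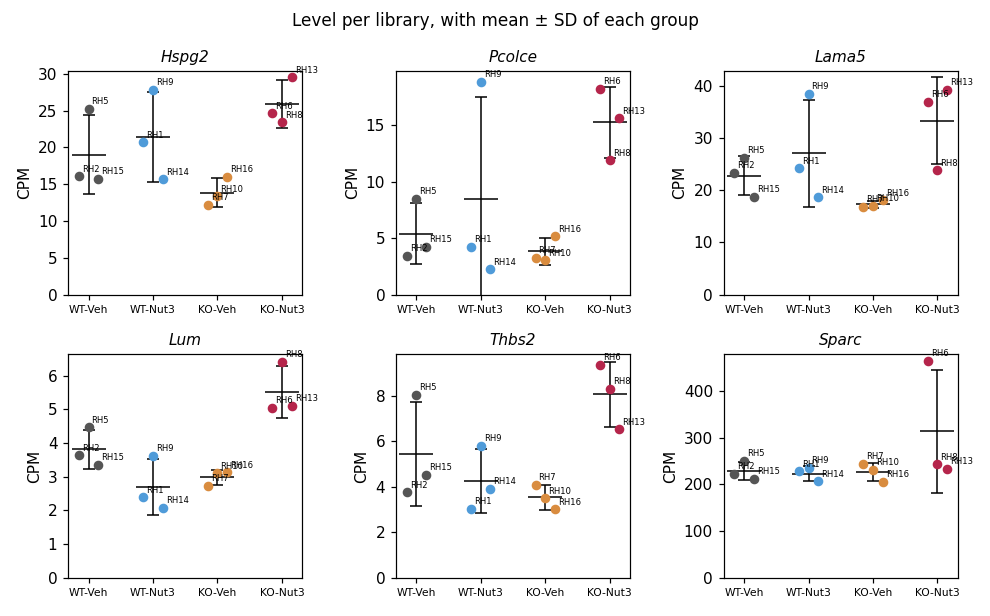
CPM of *Hspg2*, *Pcolce*, *Lama5*, *Lum*, *Thbs2* and *Sparc* in each library, marked with the animal number, with the mean ± SD of each group of 3 in black. The KO-Nut3 points of the first 5 genes all lie above the KO-Veh points, and the *Sparc* mean of KO-Nut3 includes RH6 at 465 CPM.

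In WT mice the same treatment was compared between WT-Nut3 and WT-Veh. No member and no other gene was called (0% of genes), and at an unadjusted *P* under 0.05 there was 1 member, *Thbs1*, beside 3.17% of all genes. *Thbs1* was lower in WT-Nut3. DESeq2 also called none, and its only member at an unadjusted *P* under 0.05 was another gene, *Pcolce2*, which was higher, beside 1.50% of all genes. *Pcolce2* was at 5.93, 13.3 and 4.99 CPM in WT-Nut3 against 4.96, 6.20 and 4.89 CPM in WT-Veh. Its high value was that of WT-Nut3 RH9 alone. The members had 17 positive and 23 negative differences and a median log2 fold change of -0.05. These values turned with single libraries, to 27 positive differences and a median of 0.069 without WT-Veh RH5 and to 8 and -0.14 without WT-Nut3 RH9. *Hspg2* had a log2 fold change of 0.17 ± 0.22 and *Pcolce* of 0.65 ± 0.62 (adjusted *P* = 0.998 for each), and without WT-Nut3 RH9 they were -0.062 and -0.72. The value of *Thbs1* was -1.74 ± 0.75, and without WT-Veh RH15 it was 0.13. WT-Nut3 RH9 was the highest of its group for 27 of the 40 members, beside 33.2% of all genes, and WT-Veh RH5 the highest of its group for 30, beside 32.3%. Without both libraries no member was called and the median was -0.039. The number of members at an unadjusted *P* under 0.05 was 6 without WT-Veh RH2, 5 without WT-Nut3 RH9 and 0 without WT-Veh RH15. Among all 22592 genes it was 689, 599 and 913, against 717 with every library. Beside these values, 12 of 12 choroid plexus markers (median log2 fold change 4.72) and 6 of 6 ependymal markers (0.74) had positive differences, all 12 fibroblast markers (-0.67) and 7 of 8 endothelial markers (-0.14) negative ones, mural cell markers were divided at 4 of 8 (-0.062), and none was called. The choroid plexus markers summed to 4794 CPM in WT-Nut3 RH9, and to 44.8 and 55.9 CPM in WT-Nut3 RH1 and RH14.

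Whether the response differed between the genotypes was tested with an interaction term over the 12 libraries. No member and no gene was called (0%), and the smallest adjusted *P* among members was 0.994. DESeq2 called no member, with 16 at an unadjusted *P* under 0.05 beside 2.92% of all genes. By edgeR, at an unadjusted *P* under 0.05 there were 16 members, all with a larger difference in KO, beside 4.17% of all genes. The interaction was 1.38 ± 0.31 for *Lum*, 1.54 ± 0.40 for *Thbs2*, 0.73 ± 0.29 for *Hspg2*, 0.69 ± 0.32 for *Lama5* and 1.35 ± 0.80 for *Pcolce* on the log2 scale. These values moved with single WT libraries. Without WT-Veh RH5 the interaction was 0.85 for *Pcolce* and 0.47 for *Hspg2*, without WT-Nut3 RH9 it was 2.73 and 0.97, and that of *Lama5* ran from 0.47 without WT-Nut3 RH14 to 1.03 without RH9. The number of members at an unadjusted *P* under 0.05 was 9 without WT-Veh RH5, 10 without WT-Nut3 RH14 and 10 without KO-Veh RH10. For all 22592 genes it fell as well, from 942 to 705, 698 and 693. All 12 fibroblast markers also had a positive interaction and an unadjusted *P* under 0.05 (median 2.24). A positive interaction was also found for 8 of 8 mural cell (0.43), 7 of 8 endothelial (0.41), 6 of 6 thalamus (0.79) and 9 of 12 choroid plexus markers (0.49). For ependymal markers it was positive in 2 of 6 (-0.077). None was called, and their part in the interaction of the matrix genes was not tested.

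The effect of the genotype under vehicle was compared between KO-Veh and WT-Veh. This comparison shares the KO-Veh libraries with the one of KO-Nut3 and KO-Veh, and low values in KO-Veh enter both. No member was called, beside 0.0177% of all genes, and DESeq2 called none, with 8 members at an unadjusted *P* under 0.05 beside 4.40% of all genes. By edgeR, at an unadjusted *P* under 0.05 there were 10 members, all lower in KO-Veh, beside 7.20% of all genes. The groups did not overlap for 9 members, all lower in KO-Veh, beside 6.46% of genes that were lower in this way and 5.90% that were higher. The difference was negative for 34 of 40 members with a median log2 fold change of -0.28, against -0.004 over all genes. *Eln* had the smallest *P*, with 10.5, 7.22 and 10.1 CPM in KO-Veh against 11.1, 21.2 and 13.2 CPM in WT-Veh (-0.71 ± 0.21, adjusted *P* = 0.608). *Lama5* (-0.39 ± 0.12) and *Hspg2* (-0.46 ± 0.17, adjusted *P* = 0.631) had negative differences of smaller size, that of *Pcolce* was -0.50 ± 0.31, and that of *Thbs1* was -1.95 ± 0.68 with WT-Veh RH15 and -0.07 without it. Without WT-Veh RH5 the value was -0.014 for *Pcolce*, -0.20 for *Hspg2* and -0.39 for *Eln*, and the median over the members was -0.10. At an unadjusted *P* under 0.05 there were 20 members without WT-Veh RH2, 5 without WT-Veh RH5 and 6 without KO-Veh RH10. Of these 5 and of these 6 members, 1 each was higher in KO-Veh. The same fits had 1426, 1171 and 1095 of all 22592 genes at that threshold, against 1627 with every library. The sign of 14 of the 40 differences changed when a library was left out. All 12 fibroblast markers (median log2 fold change -0.77), 8 of 8 mural cell markers (-0.27) and 7 of 8 endothelial markers (-0.24) were on the lower side in KO-Veh as well, while 9 of 12 choroid plexus markers (0.29) and 6 of 6 ependymal markers (0.72) were on the higher side. None of these markers was called, and their part in the matrix gene differences was not tested.

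The KO-Nut3 libraries were also compared with each WT group, sharing their values with the comparison in KO. Against WT-Nut3 no member was called (0.00443% of all genes), and 14 members had an unadjusted *P* under 0.05, 13 of them higher in KO-Nut3, beside 4.87% of all genes. *Lum* differed by 1.02 ± 0.24 (adjusted *P* = 0.928), *Hspg2* by 0.27 ± 0.19 and *Pcolce* by 0.84 ± 0.61. Without WT-Nut3 RH9 *Hspg2* differed by 0.50 and *Pcolce* by 2.21, and without WT-Nut3 RH14 by 0.087 and 0.39. The 14 members became 5 without WT-Nut3 RH14, 6 without WT-Nut3 RH1, 9 without KO-Nut3 RH8 and 20 without WT-Nut3 RH9. Over all 22592 genes the numbers were 684, 710, 1313 and 1382, against 1101 with every library. With a term for the block of animal numbers, 7 members and 1026 genes had an unadjusted *P* under 0.05. In the same comparison 12 of 12 fibroblast (median 1.49), 12 of 12 choroid plexus (0.89) and 6 of 6 ependymal markers (0.64) were on the higher side. So were 6 of 6 thalamus (0.63), 7 of 8 endothelial (0.14) and 7 of 8 mural cell markers (0.14). None of these markers was called, and their part was not tested. DESeq2 called none here, with 12 at an unadjusted *P* under 0.05 beside 3.27% of all genes. Against WT-Veh again no member was called (0.00443%), and 11 had an unadjusted *P* under 0.05, 10 of them higher, beside 9.17% of all genes. *Nid2* differed by 1.06 ± 0.21 (adjusted *P* = 0.167), *Pcolce* by 1.496 ± 0.30 (adjusted *P* = 0.180) and *Hspg2* by 0.44 ± 0.18, or by 0.70 without WT-Veh RH5. Without that library 19 members had an unadjusted *P* under 0.05, all higher, and the median over the members went from 0.29 to 0.54. Over all 22592 genes that number was 1615, against 2071 with every library. Positive differences were found for 12 of 12 choroid plexus (median 5.69), 6 of 6 ependymal (1.28), 6 of 6 thalamus (0.73) and 11 of 12 fibroblast markers (0.65). They were also found for 8 of 8 mural cell (0.11) and 6 of 8 endothelial markers (0.066). None of these markers was called, and their part was not tested. DESeq2 called 3 members in this comparison, beside 1.11% of the 19936 genes to which it gave an adjusted *P*.

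Over the 12 libraries the members followed more than a single pattern. KO-Nut3 RH8 was the highest library for 13 of the 40 members, KO-Nut3 RH13 for 11, KO-Nut3 RH6 for 6 and WT-Veh RH5 for 5, beside 7.74%, 8.65%, 15.3% and 7.19% of all genes. No KO-Veh library was the highest for any member, beside 6.25%, 7.99% and 8.96% of all genes for RH7, RH10 and RH16. For 8 members the 3 highest libraries were WT-Nut3 RH9, KO-Nut3 RH6 and KO-Nut3 RH13, the libraries with the most *Ttr*, beside 2.98% of all genes. These were *Lama5*, *Nid2*, *Efemp2*, *Loxl1*, *Loxl2*, *Pcolce*, *Pcolce2* and *Prelp*. For 10 members the 2 highest were KO-Nut3 RH8 and WT-Veh RH5, the libraries with the largest fibroblast marker sums, beside 1.97% of all genes. These were *Lama1*, *Lama4*, *Lamc3*, *Nid1*, *Fbln1*, *Fbln5*, *Eln*, *Efemp1*, *Bgn* and *Fn1*. The summed level of the 5 collagen processing genes was 40.6, 24.0 and 42.7 CPM in KO-Nut3 against 13.9, 40.3 and 12.2 CPM in WT-Nut3. That of the 11 elastic fibre genes was 105, 127 and 103 CPM and 94.99, 111 and 76.5 CPM. These groupings were read from the values and were not tested.

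**Figure D4:**
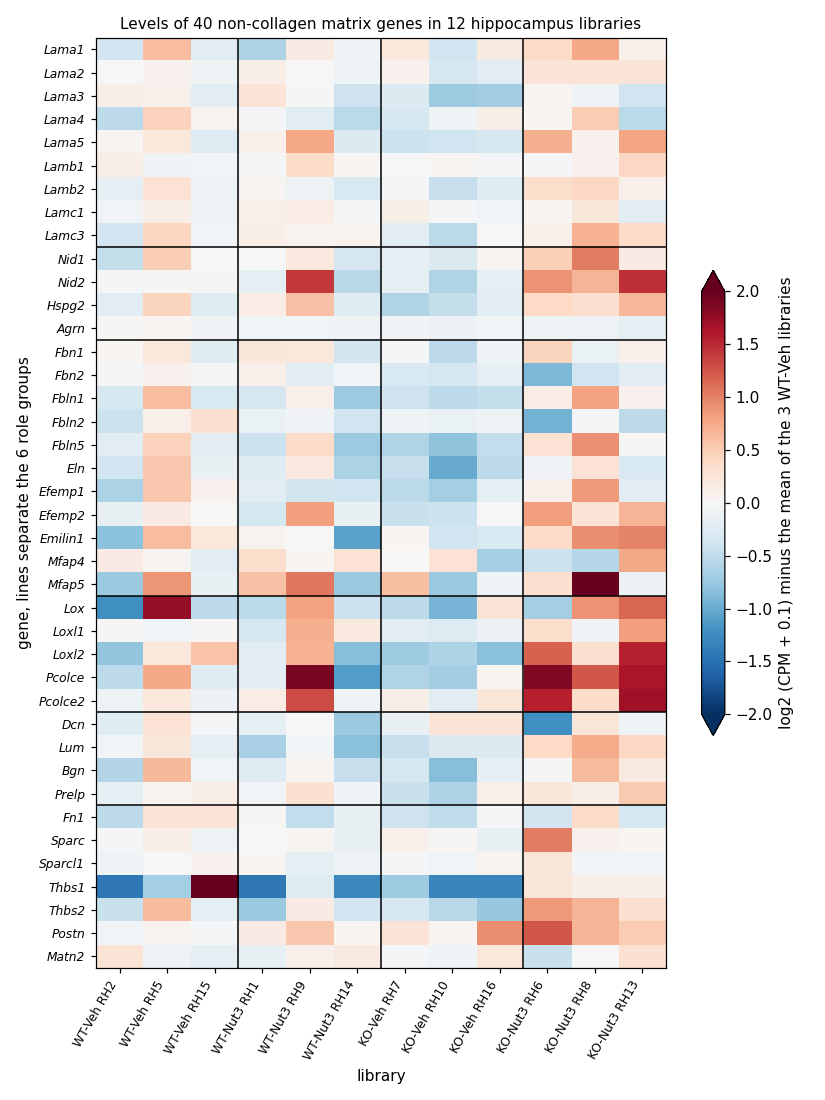
Heat map of the 40 matrix genes (rows, by role) in the 12 libraries (columns, by group), coloured by log2 (CPM + 0.1) minus the mean of the 3 WT-Veh libraries. Red is higher and blue lower, the KO-Nut3 columns hold most of the red, WT-Nut3 RH9 and WT-Veh RH5 stand out within WT, and *Agrn*, *Sparcl1* and *Lamc1* are pale throughout.

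The rest of the matrix was followed with 3 further lists in KO-Nut3 against KO-Veh. Of 43 collagen genes 42 were tested, 4 rose and none fell, beside 0.199% of all genes called, and the median log2 fold change was 0.58. *Col18a1*, a collagen of basement membranes, rose from 4.74 ± 0.56 to 13.7 ± 2.96 CPM (SD, n = 3, edgeR adjusted *P* = 0.0130). *Col4a5*, a chain of basement membrane collagen, rose from 5.78 ± 0.60 to 10.8 ± 0.48 CPM (adjusted *P* = 0.0414). *Col8a1*, a short-chain collagen, rose from 0.804 ± 0.056 to 18.8 ± 13.3 CPM (adjusted *P* = 0.0377). The last of the 4 was *Col8a2*, its partner chain, named because so few were called, with a log2 fold change of 2.66 ± 0.42 (adjusted *P* = 0.0456). In KO-Veh against WT-Veh 1 collagen fell, *Col5a1*, a fibrillar collagen chain, with a log2 fold change of -0.997 ± 0.13 (edgeR adjusted *P* = 0.0146), beside 0.0177% of all genes called. It was not called without WT-Veh RH5 or without any 1 of the 3 KO-Veh libraries. Of 30 matrix receptor genes 29 were tested and 1 rose, *Bcam*, a receptor of laminin alpha 5, from 13.3 ± 2.20 to 23.7 ± 1.61 CPM (adjusted *P* = 0.0456, beside the same 0.199%). None of the 4 collagens that rose, nor *Bcam*, was called when any 1 of the 3 KO-Veh libraries was left out, with an adjusted *P* of up to 0.473 for *Col8a2* without RH10. Without KO-Nut3 RH13 only *Col18a1* of these 5 was called, and *Col4a5* was not called without KO-Nut3 RH6. With all 12 libraries in one fit no gene was called in KO-Nut3 against KO-Veh, these 5 included. The next receptors by *P* were *Ddr2*, a collagen receptor, with a log2 fold change of 0.71 ± 0.13, and *Sdc1*, syndecan-1, with 1.79 ± 0.34, neither past the threshold. Of 51 other non-collagen matrix genes 48 were tested and none was called. At an unadjusted *P* under 0.05 there were 16, all higher, beside 7.60% of all genes, led by *Mgp* (1.38 ± 0.26), *Tgfbi* (1.45 ± 0.28) and *Frem1* (1.20 ± 0.23), and the median of this list was 0.24.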

How the data were processed

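Poly(A) RNA-seq of hippocampus from 12 mice was used. The authors mapped reads to mm10 with STAR and deposited raw counts of reads per gene, not normalized. The counts made without regard to strand were used. Of the stranded counts, 50.1% to 50.4% lay on a single strand in each library. The submitters' labels give a single-read layout and the methods paired-end reads. Counts on genes ranged from 17150820 to 20040482 per library. Rows without a gene held 21.2% to 22.6% of reads and were left out. Names and positions are from GENCODE M21 (GRCm38), in which 55240 of 55421 IDs matched. Because strand was not used, reads on overlapping genes are uncertain, and 16 members share exon bases with another gene.

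The members, roles and lists were chosen with earlier results of these data known. Each pair of groups was fitted on its own 6 libraries with edgeR 4.0.16 (R 4.3.3, TMM, quasi-likelihood test, two-sided), and the interaction on all 12, with Benjamini-Hochberg adjustment over 22592 genes with more than 20 counts. SE is the log2 fold change divided by the square root of *F*. Values are per mouse, and *P*-values measure the spread between these mice. Genes given in full are those called, those with the smallest *P* or highest level per length in each role, and others by their place among the 40. Members are described by counts and medians with no test of the list. The marker lists number 12 and the matrix lists 3. Alternatives were DESeq2 1.42.0, its size factors in edgeR, filterByExpr, no filter, limma-voom 3.58.1, robust dispersion, all libraries in one fit, a term for animal numbers up to RH8 or from RH9, and each library left out. Leaving out WT-Veh RH5 and WT-Nut3 RH9 together was added after the values were seen.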

Additional observations from a re-analysis of the deposited data

How the results depend on the processing

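In KO-Nut3 against KO-Veh the direction of most members held while the number called did not. Where edgeR called 2 members there, DESeq2 called 14, limma-voom 1, robust dispersion 5, the fit of all 12 libraries 0, the table of every gene with at least 1 count 21, and leaving out a library between 0 and 9. DESeq2 size factors, filterByExpr and the number block each gave 2. The table of every gene with at least 1 count also gave 6 in KO-Veh against WT-Veh, 3 in WT-Nut3 against WT-Veh, 4 in KO-Nut3 against WT-Veh and 16 in the interaction, where edgeR with the filter called 0, and over all 35930 genes of that table it called 272, 249, 416 and 291. In KO-Nut3 against WT-Veh, DESeq2 called 3 and leaving out a library gave 0 to 2, the 2 without KO-Nut3 RH8, where 197 of all genes were called against 1 with all libraries. Over all genes in KO-Nut3 against KO-Veh the calls were 45 with edgeR, 245 with DESeq2, 19 with limma-voom and 20 with the number block. They were 45 with robust dispersion, 0 with all 12 libraries in one fit and 544 with every gene of at least 1 count. Leaving out a library gave 6 without KO-Veh RH7 or RH10, 7 without RH16, 65 without KO-Nut3 RH6, 266 without RH8 and 41 without RH13. With the number block 11 genes were called in WT-Nut3 against WT-Veh, against 0 without it. In KO-Veh against WT-Veh it gave 21 genes, against 4. No member was among them. The causes were not tested. Of 774 log2 fold changes under alternatives, computed for 53 results given in the text, 5 reversed: *Sparcl1* in KO ranged from -0.048 to 0.11 with a library left out, and in WT *Hspg2* from -0.062 to 0.43, *Pcolce* from -0.72 to 1.14 and *Thbs1* from -2.25 to 0.13. *Pcolce* was also -0.23 in WT with both RH5 and RH9 left out. Over all 40 members, leaving out a library changed the sign of 6 in KO-Nut3 against KO-Veh (*Lama4*, *Lamc1*, *Mfap4*, *Fn1*, *Sparcl1* and *Matn2*) of 14 in KO-Veh against WT-Veh, of 27 in WT-Nut3 against WT-Veh, of 11 in KO-Nut3 against WT-Nut3, of 14 in KO-Nut3 against WT-Veh and of 11 in the interaction. No paired analysis was possible because the groups share no animal numbers. *Mfap5*, *Lox* and *Loxl2* had at most 31 counts in any library, and the part of depth in their results was not tested.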
